A study of Mus musculus with 8 samples.

Results

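The 9 genes described here, *Otx2*, *Gbx2*, *En1*, *En2*, *Pax2*, *Pax5*, *Pax8*, *Lmx1a* and *Lmx1b*, encode transcription factors that pattern the midbrain and hindbrain. They were chosen by symbol from the 26263 genes counted in each library, and all 9 were found. Polyadenylated RNA was sequenced from mouse embryonic stem cells (ESCs) and from neural precursor cells (NPCs) at day 12 of *in vitro* corticogenesis, a protocol that drives ESCs towards cells of the developing cortex. Both stages were made from 1 male hybrid line per cross, BJE2 for B/J (C57BL/6 mother, JF1 father) and JBE6 for J/B (JF1 mother, C57BL/6 father), which gave 4 groups of 2 libraries each. ESCs were kept with LIF, BMP4 and an inhibitor of GSK3-β, whereas NPCs had been moved to a defined default medium with dorsomorphin homolog 1, which blocks BMP signalling. No deletion or transgene is named for any group. Since each cross is 1 line, and since duplicates are not described as separate cultures, the p-values below measure the spread between these libraries only.

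In the embryo, *Otx2* marks the forebrain and midbrain and *Gbx2* the anterior hindbrain, and the border at which their territories meet is where the isthmic organiser forms. This signalling centre releases FGF8 and WNT1. *Pax2*, *Pax5* and *Pax8*, a family of paired-box factors, and the engrailed factors *En1* and *En2* are expressed across this border and maintain the identity of the midbrain and cerebellum. The LIM-homeodomain factors *Lmx1a* and *Lmx1b* act in the midbrain floor plate to specify dopaminergic neurons, *Lmx1b* also acts in the organiser and in hindbrain serotonergic neurons, and *Lmx1a* in the roof plate. Several of these genes have other known uses, among them *Otx2* in the exit from naive pluripotency, *Gbx2* in naive ESCs, *Pax2* and *Pax8* in kidney and thyroid and *Pax5* in B cells.

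Library depth ranged from 22537138 to 32706015 reads counted on genes, and levels are given as counts per 1000000 reads on genes (CPM), where 1 read stood for at most 0.0444 CPM. Most marker genes followed the labels of the stages: all 11 naive pluripotency genes fell in NPCs, and 7 of 9 neural precursor genes and 6 of 7 neuronal genes rose. Of the rest, the neural precursor gene *Sox2* (log2 fold change -2.27) and the neuronal gene *Stmn2* (-1.51) fell, and *Pax6* was not called. Trophoblast and fibroblast genes rose as well, in 9 of 10 and 8 of 9 cases. Among all genes tested, 37.5% rose and 31.9% fell. Of the genes that rose, 4 trophoblast and 5 fibroblast genes reached the minimum count for testing through the NPC libraries alone. So did 2 neural precursor genes and 1 neuronal gene, and for all of these only a rise could be seen. The trophoblast genes *Tpbpa* and *Pappa2*, which had 0 counts in the ESC libraries, reached means of 272 and 239 CPM in NPCs. Summed over its list, the trophoblast level was 27.8 to 98.1 CPM in ESCs and 1410 to 3530 CPM in NPCs, and the fibroblast level was 4.09 to 60.7 CPM in ESCs and 888 to 2212 CPM in NPCs. The NPC libraries thus held RNA that marks cells other than neural precursors, and in such bulk samples fewer cells of a type and less RNA per cell cannot be told apart.

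The annotation of GRCm39, the build of the count files, places *Otx2* at chr14:48894099-48911276 (minus), *Gbx2* at chr1:89855678-89858920 (minus), *En1* at chr1:120530108-120535721 (plus), *En2* at chr5:28370689-28377195 (plus), *Pax2* at chr19:44735057-44826703 (plus), *Pax5* at chr4:44524757-44710487 (minus), *Pax8* at chr2:24309418-24365617 (minus), *Lmx1a* at chr1:167516677-167676310 (plus) and *Lmx1b* at chr2:33450977-33531093 (minus).

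The 250 bases before the annotated start of 4 of the genes are shown because the results turn on these genes: *Otx2* and *Gbx2*, which lay in opposite orders between the stages, and *Lmx1a* and *Lmx1b*, both close to absent in ESCs and well detected in NPCs. They were read from GRCm39 on the strand of the gene and 5′ to 3′, at chr14:48905008-48905257 (minus strand) for *Otx2*, chr1:89858921-89859170 (minus) for *Gbx2*, chr1:167516845-167517094 (plus) for *Lmx1a* and chr2:33531094-33531343 (minus) for *Lmx1b*. Capitals mark CG dinucleotides.
Otx2: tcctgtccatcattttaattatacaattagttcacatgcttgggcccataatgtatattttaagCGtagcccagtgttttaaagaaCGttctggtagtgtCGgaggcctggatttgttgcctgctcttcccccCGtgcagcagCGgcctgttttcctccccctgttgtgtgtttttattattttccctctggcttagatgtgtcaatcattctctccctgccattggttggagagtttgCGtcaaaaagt
Gbx2: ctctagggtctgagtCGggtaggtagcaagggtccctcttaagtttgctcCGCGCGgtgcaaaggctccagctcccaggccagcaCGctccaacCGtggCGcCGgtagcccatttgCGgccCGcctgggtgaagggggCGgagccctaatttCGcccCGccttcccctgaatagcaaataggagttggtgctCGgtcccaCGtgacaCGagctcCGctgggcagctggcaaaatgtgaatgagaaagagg
Lmx1a: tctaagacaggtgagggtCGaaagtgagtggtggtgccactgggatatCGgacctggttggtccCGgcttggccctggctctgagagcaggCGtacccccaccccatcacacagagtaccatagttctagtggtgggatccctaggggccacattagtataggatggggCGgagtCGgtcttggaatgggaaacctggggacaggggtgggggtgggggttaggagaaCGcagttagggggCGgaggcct
Lmx1b: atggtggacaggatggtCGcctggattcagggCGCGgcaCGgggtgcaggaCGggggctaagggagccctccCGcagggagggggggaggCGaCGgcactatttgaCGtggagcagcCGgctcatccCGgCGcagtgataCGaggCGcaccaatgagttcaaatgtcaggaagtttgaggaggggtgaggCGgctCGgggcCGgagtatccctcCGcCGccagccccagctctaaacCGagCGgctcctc
The *Otx2* and *Lmx1a* windows held 6 and 8 CG dinucleotides, whereas those of *Gbx2* and *Lmx1b* held 17 and 21. Over all 9 genes the median was 15, against 9 over 19107 promoter windows of the same length, and the median GC content was 62% against 54.4%. The letters TAATCC, a core bound by OTX factors, were searched on both strands and occurred in 6.58% of all windows and in those of *En1* and *En2*, 154 and 217 bases before the start. TAATTA, a core shared by many homeodomain factors including engrailed and LMX1, occurred in 4.07% of all windows and in that of *Otx2*, 235 bases before the start. GCGTGAC, part of the site of PAX2, PAX5 and PAX8, occurred in 2.2% of all windows and in none of these 9. These matches describe letters in a short window and not binding.

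Between ESCs and NPCs, 5 of the 9 genes rose and 1 fell. These were *Pax2*, *Pax5*, *Pax8*, *Lmx1a* and *Lmx1b* on the one side and *Gbx2* on the other (adjusted p under 0.05 in the quasi-likelihood test of edgeR, by Benjamini-Hochberg over the 16399 genes tested). The background was broad: 37.5% of all genes tested were called higher in NPCs and 31.9% lower. The median log2 fold change was 3.26 over the 9 genes and 0.17 over all genes tested, but the first of these includes *Pax2*, *Pax8* and *Lmx1a*, which could only rise. All 9 passed the filter on low counts, but *Pax2*, *Pax8* and *Lmx1a* held at most 10 counts in any ESC library and passed through the NPC libraries alone, so that only a rise could be seen for them. Of the 6 genes that reached the count minimum in both stages, 2 rose and 1 fell. Their log2 values were 1.54 for *Otx2*, -2.78 for *Gbx2*, 0.89 for *En1*, -1.11 for *En2*, 3.26 for *Pax5* and 5.28 for *Lmx1b*.

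**Figure D1:**
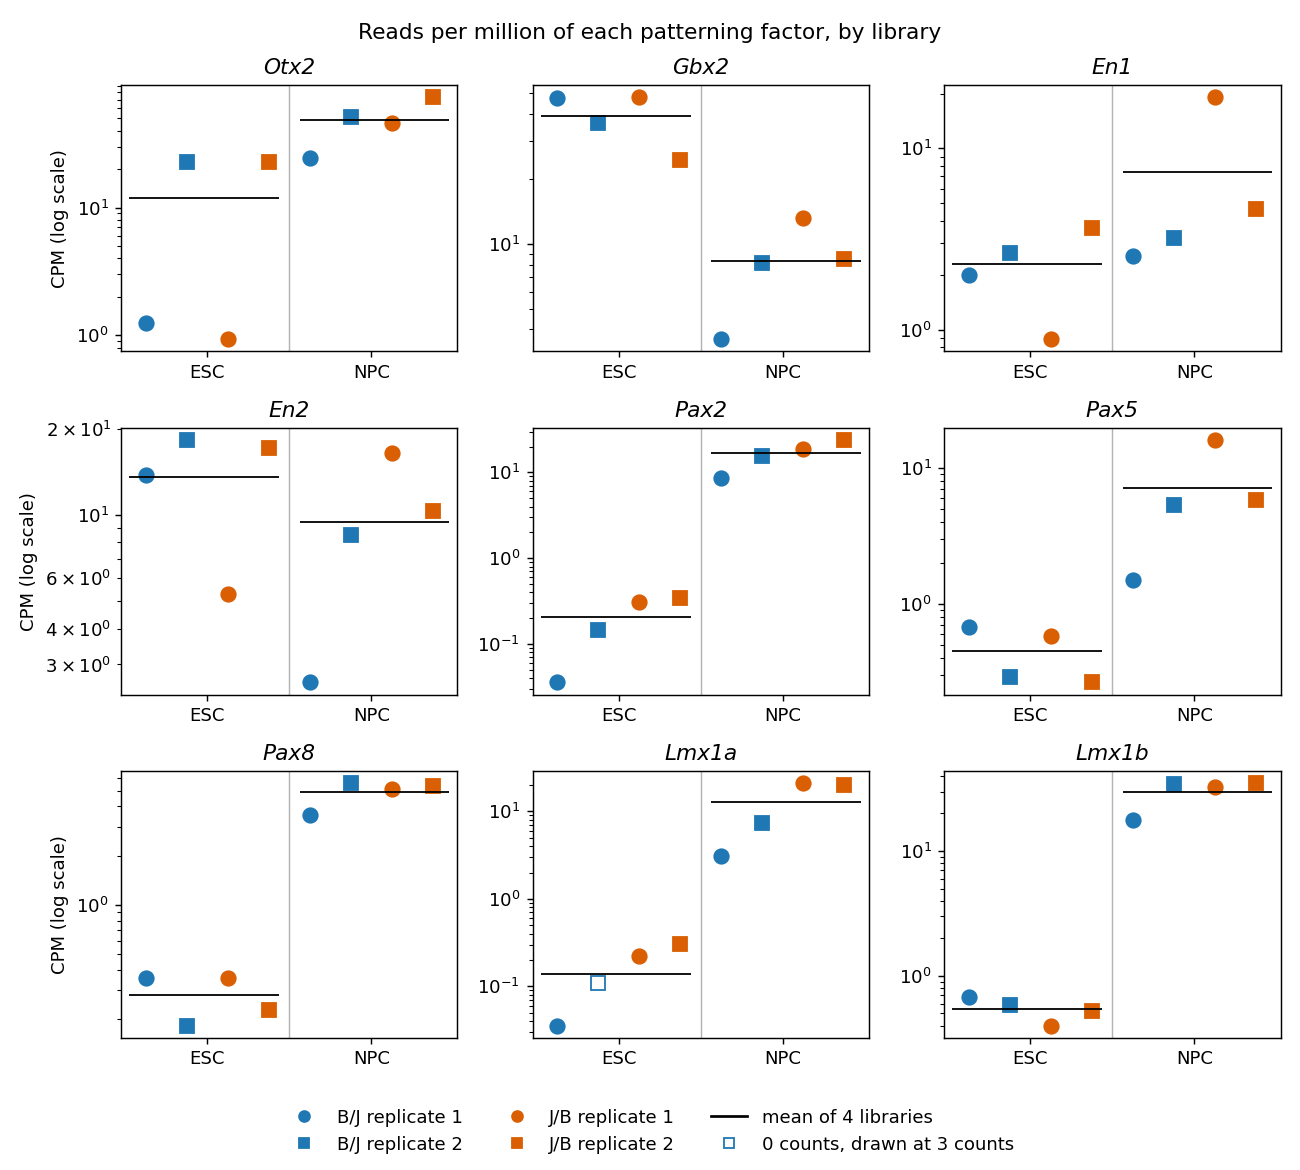
Level of each of the 9 genes in the 4 ESC and 4 NPC libraries, in CPM of the reads counted on genes (log axis, a separate scale for each gene). Circles and squares are replicates 1 and 2, colours are the crosses and lines the mean of 4 libraries; the single open symbol is 0 counts drawn at the level of 3 counts. *Pax2*, *Pax8*, *Lmx1a* and *Lmx1b* were separated between stages by wide gaps, while *Otx2* in ESCs was split by replicate number.

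The border-setting pair lay in opposite orders between the stages, and of the pair only *Gbx2* passed the test. *Otx2* reads in ESCs were 1.25 CPM in B/J replicate 1, 22.8 in B/J replicate 2, 0.932 in J/B replicate 1 and 22.6 in J/B replicate 2. In NPCs they were 24.3, 51.4, 46.0 and 73.3 CPM in the same order. All NPC libraries lay above all ESC libraries, but the lowest of them, B/J replicate 1, exceeded the number 2 ESC libraries by little, and it fell below them after TMM scaling. The *Otx2* change was 1.54 on the log2 scale (SE 0.978, 95% interval -0.73 to 3.82) and did not pass the test (adjusted p = 0.190, edgeR). It was 1.20 within B/J (adjusted p = 0.476) and 1.89 within J/B (adjusted p = 0.278). Leaving out ESC B/J replicate 2 gave 3.15 (adjusted p = 0.0370) and leaving out ESC J/B replicate 2 gave 3.34 (adjusted p = 0.0204). It also passed with the number 1 libraries alone and with the number 2 libraries alone (4.44 and 0.97), whereas the fit of all 8 libraries missed the call. Within B/J single libraries moved it from 0.29 to 4.41, without a call. Leaving out ESC J/B replicate 2 also gave 5.48 within J/B (adjusted p = 0.0374). *Otx2* shares 168 exonic bases with an antisense gene that was counted, and 94 and 168 with an antisense and a same-strand gene that were not.

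The split of *Otx2* by replicate number in ESCs was tested as its own term within each stage, a fit chosen after the values were seen. *Otx2* was 4.30 log2 units higher in the number 2 ESC libraries (SE 0.231, adjusted p = 0.00900, edgeR), in both crosses, and it was the only one of the 9 genes to pass, among 398 of 16399 genes. In NPCs the same term was 0.84 for *Otx2* (adjusted p = 0.0864), and 55 genes passed. With this term in the fit, the stage change of *Otx2* was 2.71 (adjusted p = 1.55e-05), with 2.29 within B/J (adjusted p = 2.01e-04) and 3.13 within J/B (adjusted p = 9.20e-05), all called. Genes of the formative epiblast were also higher in those libraries: their summed level was 498, 973, 278 and 987 CPM in ESC B/J replicates 1 and 2 and J/B replicates 1 and 2. *Dnmt3b*, a DNA methyltransferase raised in formative cells, stood at 269.6, 644.4, 119.1 and 652.4 CPM. The POU factor gene *Pou3f1*, picked after its values were seen, stood at 4.91, 16.9, 5.59 and 20.9 CPM in that order. Before TMM scaling, all 7 formative genes were higher in the number 2 library of each cross, but *Sall2* was practically level in B/J (15.23 against 15.25 CPM). The share of all genes that were higher in both number 2 libraries was not counted, so the 7 have no background to be judged by. Of the 11 naive genes 6 were lower there in both crosses, 3 were higher (*Klf2*, *Zfp42* and *Dppa3*) and 2 were mixed, and their sum, which the most abundant genes carry, was 3541, 2889, 4196 and 2640 CPM. The part of these differences in the *Otx2* result was not tested, and the sources used here do not say which library had which of the kits and sequencers that the authors name.

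**Figure D2:**
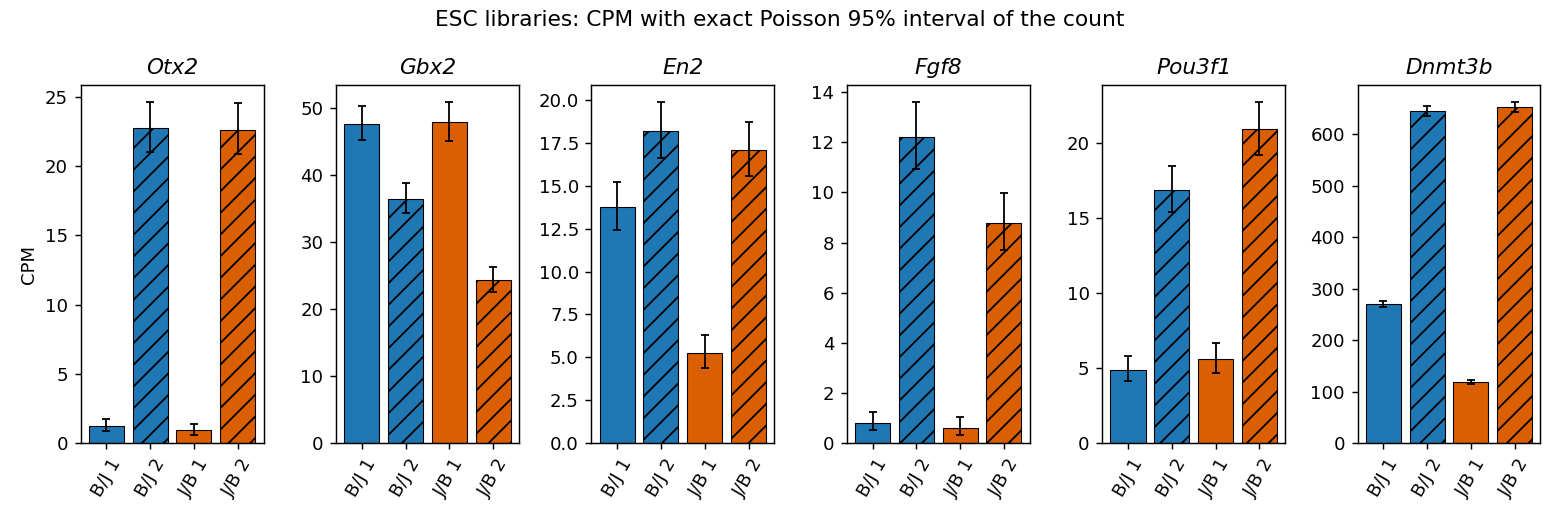
Levels in the 4 ESC libraries of *Otx2*, *Gbx2*, *En2* and of *Fgf8*, *Pou3f1* and *Dnmt3b*, in CPM from 0 on a separate scale for each gene. Hatched bars are replicate 2, and error bars are exact Poisson 95% intervals of the count, which cover counting error only. The replicate 2 bars of *Otx2* (22.8 and 22.6 CPM) stand far above those of replicate 1 (1.25 and 0.932 CPM), as do those of *Fgf8*, whereas those of *Gbx2* are the lower ones in each cross.

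*Gbx2* levels were 47.7, 36.5, 47.9 and 24.4 CPM in ESC B/J replicates 1 and 2 and J/B replicates 1 and 2. In NPCs they were 3.60, 8.16, 13.1 and 8.51 CPM. The highest NPC library, J/B replicate 1, lay below the lowest ESC library. *Gbx2* fell by 2.78 on the log2 scale (SE 0.360, adjusted p = 3.26e-04, edgeR), by 3.32 within B/J (adjusted p = 0.00157) and by 2.24 within J/B (adjusted p = 0.00736). Without NPC J/B replicate 2 the value within J/B was -1.96 and did not pass (adjusted p = 0.0562). In ESCs, where *Gbx2* is known as a naive pluripotency factor, both number 2 libraries were the lower ones of their cross, but the number term did not pass (log2 -0.75, adjusted p = 0.296). A non-coding gene on the opposite strand shares 966 exonic bases with *Gbx2* and is not among the genes counted, and since the strand setting of the counting is not given, its reads may be included.

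The engrailed genes gave no call over both crosses. *En1* levels were 1.99, 2.66, 0.887 and 3.62 CPM in ESCs and 2.56, 3.20, 19.2 and 4.61 CPM in NPCs, in the order B/J replicates 1 and 2, then J/B replicates 1 and 2. A single NPC library, J/B replicate 1, held 627 of the 909 *En1* reads of the stage. Both B/J libraries lay within the ESC range, and J/B replicate 2 lay a little above it in CPM. The *En1* change was 0.89 on the log2 scale (SE 0.564, 95% interval -0.42 to 2.20, adjusted p = 0.192, edgeR). It was -0.16 within B/J (adjusted p = 0.874) and 1.94 within J/B (adjusted p = 0.0765). The J/B value passed in 6 of 19 alternatives: under library totals (2.39, adjusted p = 0.0432), scaling to housekeeping genes (2.56, adjusted p = 0.0345), DESeq2 (1.96, adjusted p = 0.0333), a replicate block within each stage (1.92, adjusted p = 0.0418) and on leaving out replicate 2 of J/B ESCs or NPCs. Leaving out ESC J/B replicate 2 gave 1.54 over both crosses (adjusted p = 0.0472) and 3.23 within J/B (adjusted p = 0.0322), and leaving out NPC J/B replicate 2 gave 2.62 within J/B (adjusted p = 0.0371). Leaving out NPC J/B replicate 1 moved the values the other way, to 0.19 over both crosses (adjusted p = 0.781) and 0.53 within J/B (adjusted p = 0.624), and without ESC J/B replicate 1 they were 0.56 and 1.28 (adjusted p = 0.378 and 0.256).

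*En2* was the more abundant of the engrailed pair in ESCs also when levels are taken per length of exon (2.90 against 0.860 CPM per kb). Its levels were 13.8, 18.2, 5.28 and 17.1 CPM in ESCs and 2.60, 8.50, 16.5 and 10.3 CPM in NPCs. The stages overlapped, with ESC J/B replicate 1 low among ESCs and NPC B/J replicate 1 low among NPCs. The *En2* change was -1.11 on the log2 scale over both crosses (SE 0.469, adjusted p = 0.0657, edgeR). It passed without ESC J/B replicate 1 (-1.40, adjusted p = 0.0211) and on leaving out NPC B/J replicate 2 (-1.64, adjusted p = 0.0197), whereas without ESC J/B replicate 2 it was -0.59 (adjusted p = 0.258). Within B/J *En2* fell by 2.01 (adjusted p = 0.0368), a call that was lost on leaving out either ESC B/J library or NPC B/J replicate 1 (adjusted p = 0.0831, 0.123 and 0.153) and, narrowly, either NPC J/B library (adjusted p = 0.0520 and 0.0514). It grew to -3.06 when NPC B/J replicate 2 was left out (adjusted p = 0.0220). Within J/B its value was -0.20 (adjusted p = 0.803).

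The 3 Pax genes of the group all rose over both crosses. *Pax2* had 1, 4, 7 and 9 counts in the ESC libraries, or 0.0356 to 0.339 CPM, and 8.63, 15.5, 19.0 and 23.7 CPM in NPC B/J replicates 1 and 2 and J/B replicates 1 and 2. Its NPC libraries were all at least 266 counts, and no ESC library came near. *Pax2* rose by 6.03 on the log2 scale (SE 0.428, adjusted p = 2.83e-05, edgeR), with 6.53 within B/J and 5.53 within J/B, both called. Pooled over libraries this was an 82.0-fold ratio, with a counting interval of 53.5 to 132.7.

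*Pax8* levels were 0.356, 0.182, 0.355 and 0.226 CPM in ESCs and 3.57, 5.53, 5.11 and 5.31 CPM in NPCs. Its 4 NPC libraries differed least of the 9 genes (4.88 ± 0.889 CPM, SD, n = 4), and the gap to ESCs was wide. *Pax8* rose by 3.62 on the log2 scale (SE 0.430, adjusted p = 2.02e-04, edgeR), by 3.58 within B/J and 3.66 within J/B. A non-coding antisense gene shares 680 exonic bases with *Pax8*, and no more than 7 reads were assigned to it in any library.

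*Pax5*, known outside the brain as the B cell identity factor, was the most variable of the 3. Its levels were 0.676, 0.292, 0.577 and 0.264 CPM in ESCs and 1.49, 5.34, 15.9 and 5.78 CPM in NPCs. All NPC libraries lay above all ESC libraries, with J/B replicate 1 the highest and B/J replicate 1 the lowest. *Pax5* rose by 3.26 on the log2 scale (SE 0.634, adjusted p = 0.00246, edgeR) and by 4.20 within J/B (adjusted p = 0.00723). Within B/J its value of 2.31 did not pass (adjusted p = 0.0524), and it ran from 1.16 without NPC B/J replicate 2 (adjusted p = 0.333) to 3.08 without ESC B/J replicate 1 (adjusted p = 0.0896), and among single libraries left out it passed for NPC B/J replicate 1 alone (2.95, adjusted p = 0.0338). It also passed in 7 other alternatives, so that the call depends on the setting. These were library totals (2.80, adjusted p = 0.0278), housekeeping scaling (2.89, adjusted p = 0.0259), DESeq2 (2.34, adjusted p = 0.0186), no low-count filter (2.33, adjusted p = 0.0410), a fit of the B/J libraries alone (2.31, adjusted p = 0.0433), the replicate block (2.52, adjusted p = 0.0492) and the block within each stage (2.42, adjusted p = 0.0440). A counted antisense gene shares 636 exonic bases with *Pax5* and had at most 21 reads in a library, and another that was not counted shares 125, so reads of the latter may be included.

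The LIM-homeodomain pair gave the other large rises. *Lmx1a* had 1, 0, 5 and 8 counts in ESC B/J replicates 1 and 2 and J/B replicates 1 and 2, and 95, 197, 681 and 511 counts in the NPC libraries, or 3.08, 7.41, 20.8 and 19.9 CPM. Both J/B libraries lay above both B/J libraries at each stage. *Lmx1a* rose by 6.60 on the log2 scale (SE 0.548, adjusted p = 4.59e-05, edgeR) and by 5.77 within J/B. With so few ESC counts the size of the first value rests on single libraries, with 7.90 on leaving out ESC B/J replicate 1 and 6.17 on leaving out ESC B/J replicate 2, both called. Within B/J the ESC libraries held 1 count in all, so the fitted 7.43 depends on the prior count. The pooled ratio there was 282, with a counting interval of 50.3 to 11193.

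*Lmx1b* levels were 0.676, 0.584, 0.399 and 0.528 CPM in ESCs and 17.8, 34.2, 32.7 and 34.8 CPM in NPCs. In NPCs 3 libraries agreed closely and B/J replicate 1 was lower. *Lmx1b* rose by 5.28 on the log2 scale (SE 0.307, adjusted p = 1.61e-05, edgeR), by 4.88 within B/J and 5.68 within J/B, and had the smallest standard error of the 9 genes.

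**Figure D3:**
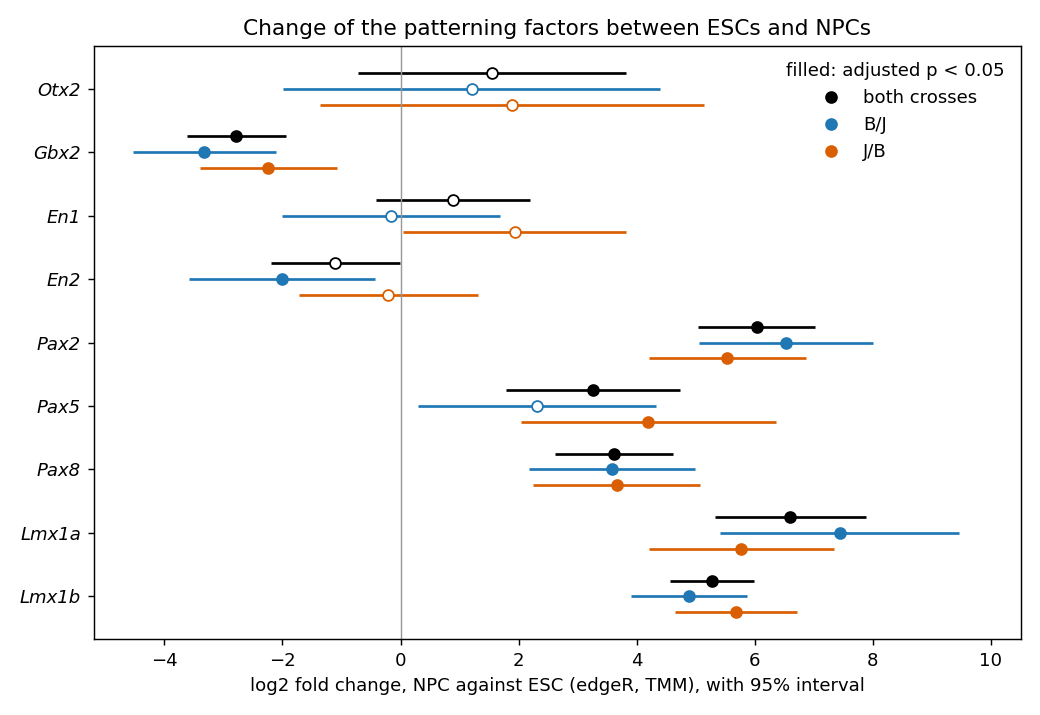
Change of each gene from ESCs to NPCs as the log2 fold change from edgeR with its 95% interval, over both crosses (black), within B/J (blue) and within J/B (orange). Filled points passed an adjusted p of 0.05. *Pax2*, *Pax8*, *Lmx1a* and *Lmx1b* lie far to the right and *Gbx2* to the left in both crosses, while the intervals of *Otx2* span 0 in each.

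Within each cross, B/J gave 4 genes higher (*Pax2*, *Pax8*, *Lmx1a*, *Lmx1b*) and 2 lower (*Gbx2*, *En2*), against backgrounds of 30.1% and 25.6% of all genes tested. J/B gave 5 higher (*Pax2*, *Pax5*, *Pax8*, *Lmx1a*, *Lmx1b*) and 1 lower (*Gbx2*), against 29.1% and 25.3%. Without regard to a fit, all 4 NPC libraries lay above all 4 ESC libraries in CPM for 6 of the 9 genes, where the background was 46.7%, and below them for *Gbx2*, where it was 20.5%. An exact two-sided permutation test of log2 CPM on each gene gave p = 0.0286, the smallest that 4 against 4 libraries allows, for these 7 genes. The same permutation test gave p = 0.143 for *En1* and p = 0.400 for *En2*, and p = 0.0857 for *Otx2* on TMM-scaled values.

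The crosses were compared next, since the study was designed with reciprocal crosses of the same strains. Each cross is 1 male line, so that cross and line cannot be told apart. No gene of the 16399 passed the test of a difference in stage change between crosses (0% called by edgeR, 573 at an unadjusted p under 0.05, 11 by DESeq2 and 0 by limma-voom). Among the 9 genes the difference ran from -1.66 for *Lmx1a* to 2.10 for *En1* on the log2 scale, and none reached an unadjusted p under 0.05. Calls made in a single cross, such as *En2* in B/J, are therefore not shown to differ between the crosses. Between J/B and B/J ESCs 0% were called (346 unadjusted, 10 by DESeq2 and 0 by limma-voom), and between J/B and B/J NPCs 0.0061%, which is 1 gene (1050 unadjusted, 70 by DESeq2 and 1 by limma-voom) and none of the 9.

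*Lmx1a* had the smallest unadjusted p of the 9 genes between the crosses at each stage. It was higher in J/B than in B/J by 1.92 on the log2 scale in NPCs (95% interval 0.67 to 3.16, unadjusted p = 0.00781, adjusted p = 0.734, edgeR) and by 3.58 in ESCs, where the J/B and B/J libraries held 13 counts and 1 count. Leaving out ESC B/J replicate 1 or 2 moved the ESC value to 6.16 or 2.69. Neither passed the adjustment. The log2 difference of *En1* between NPCs was slightly larger than that of *Lmx1a* (95% interval 0.12 to 3.88) but less precise. *En1* averaged 11.9 CPM in J/B and 2.88 CPM in B/J NPCs (adjusted p = 0.770), which rested on J/B replicate 1: without that library the log2 difference was 0.59. For *Pax8* and *Lmx1b* the values in NPCs were 0.15 (95% interval -1.06 to 1.35) and 0.33 (95% interval -0.47 to 1.13).

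Per kb of annotated exon, the order of the levels differed between the stages. In ESCs *Gbx2* came first with 17.8 ± 5.09 CPM per kb (SD, n = 4), apart from *En2* with 2.90 and *Otx2* with 2.20, which overlapped with each other and with *En1* at 0.860. *Lmx1b*, *Pax5*, *Lmx1a*, *Pax8* and *Pax2* followed, apart from *En1*, with 0.100, 0.0511, 0.0393, 0.0388 and 0.0319 CPM per kb, and the ranges of neighbours in this order overlapped. In NPCs *Otx2* came first with 9.02 ± 3.72 CPM per kb, followed by *Lmx1b* with 5.48, *Gbx2* with 3.80, *Lmx1a* with 3.60, *En1* with 2.77, *Pax2* with 2.56, *En2* with 2.02, *Pax5* with 0.804 and *Pax8* with 0.676. Each neighbouring pair in the NPC order overlapped, so that the order there is a description of means.

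**Figure D4:**
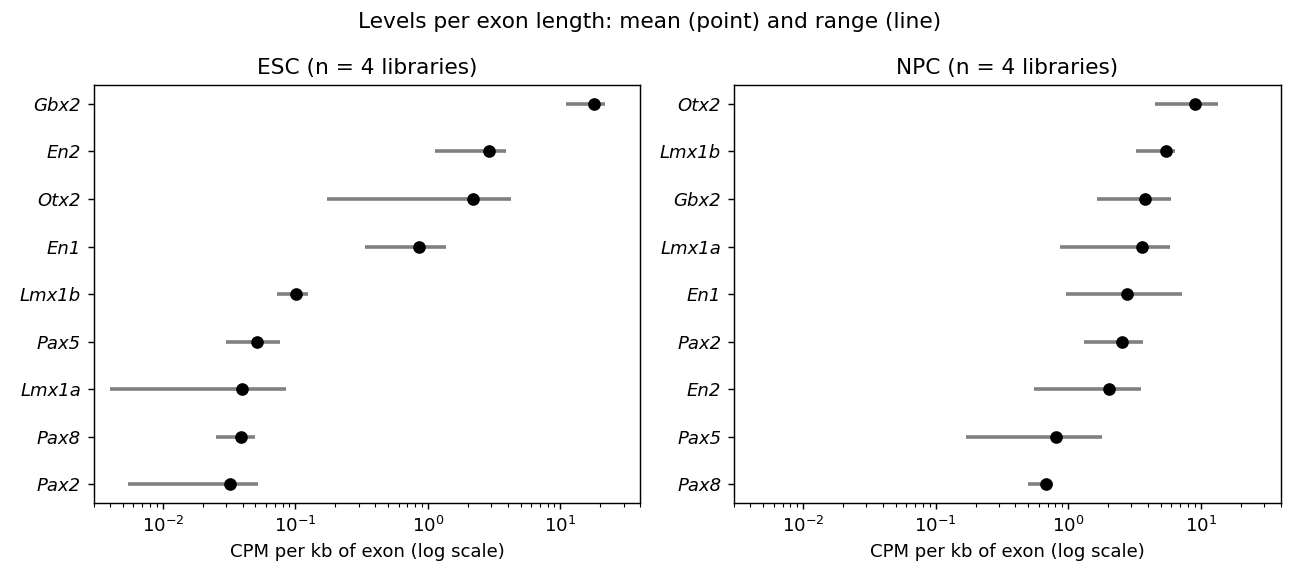
Levels of the 9 genes per kb of exon (CPM per kb, log axis), ordered by mean within ESCs (left) and NPCs (right). Points are means and lines the range over 4 libraries; the line of *Lmx1a* in ESCs, where 1 library had 0 counts, is drawn from the left part of the axis. *Gbx2* stands apart in ESCs at 17.8 CPM per kb, and in NPCs all neighbouring ranges overlap.

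The NPC libraries differed from each other along shared lines. B/J replicate 1 was the lowest of the 4 for all 9 genes, and the sum of the 9 was 67.6 CPM in it against 139, 188 and 186 CPM in B/J replicate 2 and J/B replicates 1 and 2. In the same order, the summed neural precursor genes stood at 793, 1638, 2159 and 1905 CPM and the neuronal genes at 319, 1171, 915 and 1850 CPM. The trophoblast genes ran the other way, with 3530, 1959, 1997 and 1410 CPM, while the fibroblast genes stood at 2071, 1561, 888 and 2212 CPM. The part of the mixture of cells in the levels of the 9 genes was not tested.

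J/B replicate 1 was the highest NPC library for *Gbx2*, *En1*, *En2*, *Pax5* and *Lmx1a*. J/B replicate 2 was the highest for *Otx2*, *Pax2* and *Lmx1b*. The latter was also highest in the forebrain sum, with 341 CPM against 38.8, 122 and 80.9 CPM in the other 3 libraries. Midbrain and hindbrain sums separated the J/B libraries less, with 191 and 219 CPM for midbrain and 257 and 240 CPM for hindbrain.

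**Figure D5:**
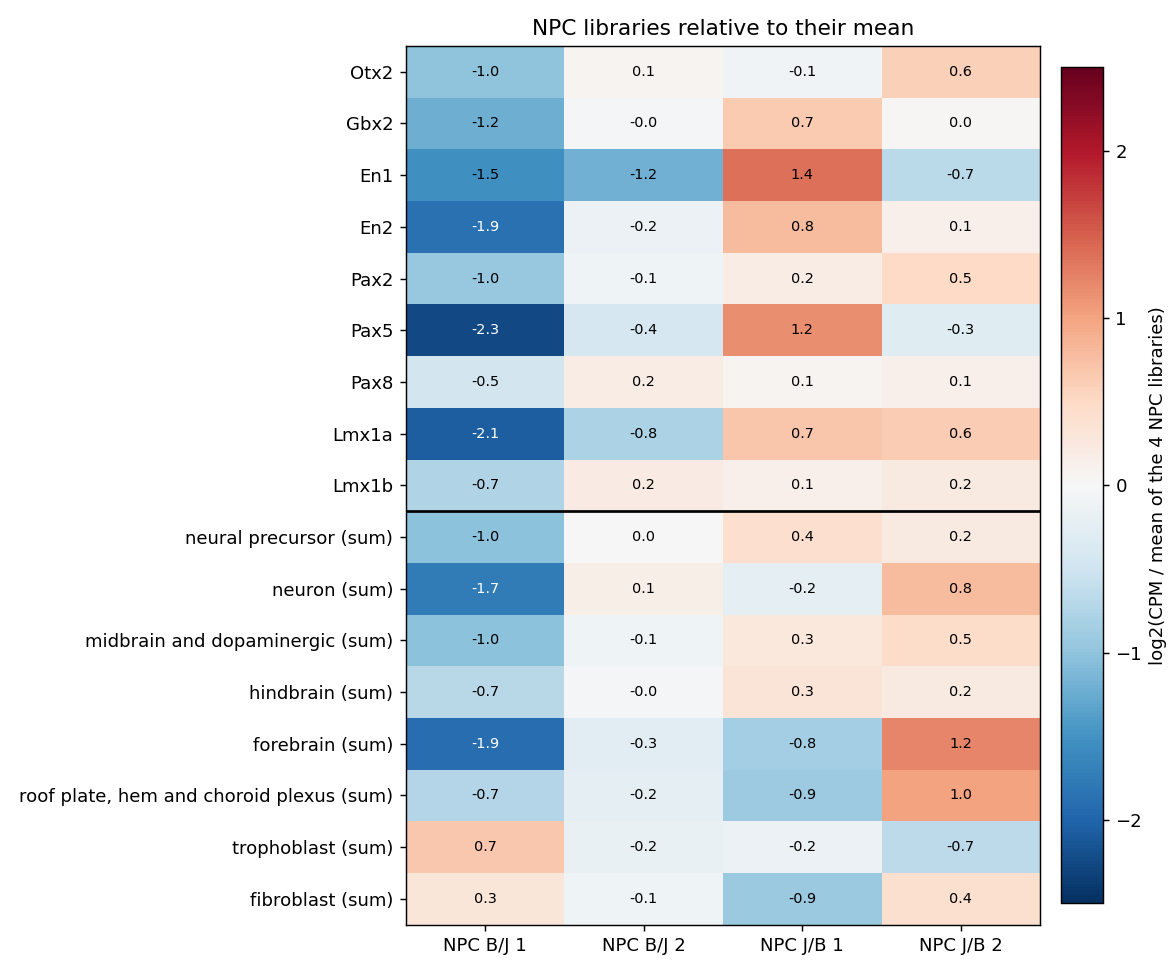
Each of the 9 genes (upper rows) and the summed level of 8 marker lists (lower rows) in the 4 NPC libraries, as log2 of the CPM over the mean of the 4 libraries. Blue is below and red above the mean. B/J replicate 1 is blue for all 9 genes and for the neural and regional lists and red for trophoblast and fibroblast, and J/B replicate 1 is the reddest for *En1* and *Pax5*.

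Genes that act with the 9 in the same territories were read from lists chosen for their textbook roles. Of 12 isthmic organiser signals and FGF feedback genes, 2 rose, 8 fell and 2 were not called, with a median log2 fold change of -2.22. Among all genes tested, 37.5% rose and 31.9% fell. *Wnt1*, the organiser's WNT ligand, had 1 count over the 4 ESC libraries and rose to 2.14, 9.33, 13.0 and 10.9 CPM in the NPC libraries (adjusted p = 1.95e-04, edgeR). It reached the count minimum through the NPC libraries alone, so that only a rise could be seen for it. The ligand gene *Fgf17* fell by 5.05 on the log2 scale, and the FGF response genes *Spry4* and *Etv5*, a feedback inhibitor and an ETS factor, fell by 4.16 and 4.34. The falls of *Spry4* and *Etv5* start from ESC means of 149 and 657 CPM and do not measure the activity of an organiser. *Fgf8*, named here after its values were seen, stood at 0.819, 12.2, 0.621 and 8.79 CPM in ESCs, the same split by number as *Otx2*, and at 1.88, 1.92, 7.64 and 2.89 CPM in NPCs, and was not called.

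Of 13 midbrain and dopaminergic genes tested, 10 rose and 1 fell, where 37.5% and 31.9% of all genes did. Those that rose include 7 genes, the next 4 named among them, that reached the count minimum through the NPC libraries alone, so that only a rise could be seen for them. Of the 6 that reached it in both stages 3 rose and 1 fell. *Th*, the rate-limiting enzyme of dopamine synthesis, reached 5.06, 17.9, 12.3 and 10.9 CPM in NPCs from at most 0.113 CPM in ESCs. *Slc18a2*, the vesicular monoamine transporter gene, reached a mean of 4.27 ± 1.51 CPM (SD, n = 4), the homeobox gene *Barhl1* 3.54 ± 2.81 and the dorsal midbrain factor *Pax7* 11.6 ± 6.74. The gene that fell was *Ddc*, the next enzyme of dopamine synthesis, from 20.4 to 4.65 CPM on average (log2 -2.63, adjusted p = 4.20e-04). The remaining 2 of the 15 listed genes, the dopaminergic genes *Pitx3* and *Slc6a3*, were too low to be tested.

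Of 16 hindbrain genes tested, 10 rose and none fell, but 9 reached the count minimum through NPCs alone, and of the 7 that reached it in both stages 3 rose. The Hox genes *Hoxa2* and *Hoxd3*, which mark levels behind the organiser, reached means of 18.6 ± 8.12 and 11.4 ± 7.02 CPM (SD, n = 4). *Ptf1a*, which specifies inhibitory cerebellar neurons, reached 1.26 ± 0.561 CPM. Forebrain genes rose in 13 of 16 cases and fell in 1 (*Hesx1*). Again 10 of the 13 that rose could be tested through NPCs alone, and of the 6 present in both stages 3 rose. *Lhx5* and *Six3* reached means of 28.6 and 4.68 CPM. *Wnt8b* stood at 0.811, 7.71, 5.60 and 43.8 CPM and *Emx2* at 4.61, 7.94, 4.74 and 28.7 CPM in NPC B/J replicates 1 and 2 and J/B replicates 1 and 2, so that J/B replicate 2 set the mean of each. Of the 9 roof plate genes, 7 rose, 5 of them among the 7 present in both stages.

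Lists for other sites in which these factors work gave unequal counts, against the 37.5% higher and 31.9% lower among all genes. All 7 nephric and thyroid genes tested were called, 6 higher and 1, *Wt1*, lower, but 4 of the 6 could only rise, led by *Osr1*, an early kidney mesenchyme factor with 0 counts in ESCs and at least 551-fold higher in NPCs against 3 counts over the ESC group. Limb and connective mesenchyme genes rose in 6 of 7 cases, 3 of which could only rise, and *Prrx1* reached 58.8 ± 21.2 CPM (SD, n = 4). Otic genes rose in 2 of 6 cases. B lymphoid genes gave 2 higher, 2 lower and 1 not called, of which 3 could only fall and 1 could only rise, and the highest of these, *Ebf1*, is also expressed outside blood. Of 7 formative epiblast genes, 1 rose and 3 fell, and of 7 visceral endoderm genes 4 rose and 2 fell. Which cells of the mixture held the 9 genes was not measured.

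Finally, the genes most alike to each of the 9 in their pattern over the 8 libraries were named, by Pearson's r of log2 CPM among 14080 genes, as a description. All 8 points share the difference between stages. *Pax2* was closest to *Tmem121b*, *Grik5* and the dorsal neural factor *Pax3* (r from 0.997 to 0.998), *Lmx1b* to *Meis1*, *Pantr1* and *Nhlh1* (0.997 to 0.998) and *Pax8* to *Meis2*, *Ap3m2* and *Nhlh2* (each 0.996). *Lmx1a* was closest to *Nell2*, *Disp3* and *Olfml2b* (0.988 to 0.994), *Pax5* to *Zfp41*, the neural precursor gene *Sox1* and *Fgfr3* (0.978 to 0.996) and *Gbx2* to *Blmh*, *Rnd1* and *Smc1a* (0.994 to 0.995). *Otx2* was closest to *Shc4*, *Ebag9* and *Nptxr* (0.986 to 0.989) and *En2* to *Msra*, *Wasf3* and *Spred1* (0.977 to 0.981). *En1* was closest to *Ptch1*, *Nkx2-9* and *Pde3b* (0.944 to 0.969). For *En1*, *Ptch1* and *Nkx2-9*, NPC J/B replicate 1 was the highest of the 8 libraries. It held 627 of the 909 *En1* reads and 343 of the 382 *Nkx2-9* reads of the NPC stage. Whether these genes stay alike without that library was not tested. Among the 5 genes that rose, the 10 pairs had r from 0.854 to 0.986, against -0.895 to 0.986 over all 36 pairs of the 9 genes. High values follow from choosing genes that rose between the stages, so they do not show shared regulation.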

How the data were processed

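Reads were aligned in pairs by the authors, using TopHat2, to mm39 masked at JF1 SNPs with a refGene-based annotation, and properly paired, well-mapped alignments were kept; HTSeq is among the tools in the submitters' processing notes, without a version or strand setting. The deposited values are raw counts per gene, without normalization, for 8 libraries. The 5 closing entries that name no gene were left out of totals; reads without a gene were 5.76 to 10.9% of a library. CPM are counts per 1000000 reads on genes, before TMM scaling. Counts were fitted in R 4.3.3 with edgeR 4.0.16 (TMM, filterByExpr with a minimum count of 10, robust quasi-likelihood, group means over all 8 libraries), with Benjamini-Hochberg adjustment over 16399 genes and a threshold of 0.05. Alternatives included DESeq2 1.42.0, limma-voom (limma 3.58.1), other scalings and filters, and leaving out each library. Exon lengths, canonical starts and promoter windows came from the GENCODE annotation of GRCm39 (mm39), in which all 9 symbols matched. The fit was tested on simulated counts of NPC against ESC (16098 genes) with the same dispersion for all genes. There 100 genes were changed 4-fold and 100 were changed 2-fold. It recovered 95% of the 4-fold but 22% of the 2-fold changes. In the data 11378 genes were called, which makes the adjusted threshold less strict than in the simulation. These shares therefore do not give the sensitivity of the test here, and a change near 2-fold could still be missed. Replicates differed by far more than sampling noise (chi-square over degrees of freedom 60.3 to 84.7).

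The 9 genes and all lists were chosen with earlier results of these data known. Named are the 9 genes, up to 4 genes a list with the largest change among those called with a mean of at least 1 CPM in 1 stage, and the 3 genes most correlated with each of the 9; others are said to have been chosen after their values were seen, or are given as defining markers. Some genes that this rule would name are not reported here.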

Additional observations from a re-analysis of the deposited data

Results flagged for a closer look

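*En1* and *Lmx1b* were singled out among the NPC libraries because 1 of the 4 values lay far from the rest. For *En1* the gap between J/B replicate 1 (19.2 CPM) and its nearest neighbour took up 0.877 of the range of the 4 libraries. For *Lmx1b* the gap above B/J replicate 1, the lowest library (17.8 CPM, against 32.7 to 34.8 CPM in the others), took up 0.873. Both exceed Dixon's 95% critical value for 4 samples. In total, 18 sets of 4 libraries were examined, and chance alone exceeds the critical value in about 1 set in 20.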

How the results depend on the processing

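The number of the 9 genes called over both crosses ran from 6 to 8 over 21 alternatives, within B/J from 5 to 8 and within J/B from 6 to 8 over 20 each, and 0 were called between crosses or for their interaction under any. Directions of *Otx2*, *Gbx2*, *Pax2*, *Pax5*, *Pax8*, *Lmx1a* and *Lmx1b* held in every alternative run, for the change over both crosses and within each. The *En1* change over both crosses turned to -0.16 with the number 2 libraries only (an alternative added after seeing the data), and *Pax5* lost its call with the number 1 libraries only (2.48, adjusted p = 0.123). Within B/J *En1* turned to 0.31 under library totals and 0.35 under scaling to *Gapdh*, *Gusb* and *Tbp*, with -0.33 to 0.0282 on leaving out single libraries. Within J/B *En2* turned to 0.26 and 0.47 under these scalings, to 0.0591 with the replicate block and to 0.0253 with a block within each stage, with -0.79 to 0.83 on leaving out single libraries. Library totals and housekeeping scaling moved the median of all genes from 0.17 to 0.65 and 0.80, and the *En2* call within B/J was lost under both (-1.53 and -1.45), while *Pax5* within B/J (2.80 and 2.89) and *En1* within J/B (2.39 and 2.56) gained one. The *En2* change over both crosses passed under DESeq2 (-1.09, adjusted p = 0.0312) and limma-voom (-1.16, adjusted p = 0.0438), and *Otx2* under limma-voom (2.61, adjusted p = 0.0344). Same-numbered libraries deviated together within a stage (r = 0.518 in ESCs, 0.587 in NPCs) but hardly across stages (0.0489 to 0.0915), so the numbers were not taken as pairs; with the replicate block 7 of the 9 genes were called over both crosses, with *Otx2* at 2.52 (adjusted p = 0.0205) and at 2.96 within J/B (adjusted p = 0.0454), and 12010 genes in place of 11378. With the number 1 and the number 2 libraries alone *Otx2* was 4.44 (adjusted p = 0.00492) and 0.97 (adjusted p = 0.00178), and *En2* with the number 2 libraries alone was -1.38 (adjusted p = 0.000570). By the permutation test 6 in place of 7 genes reached the smallest p on TMM-scaled values and on leaving out any library. With lengths of the longest transcript 6 genes changed rank in ESCs and 4 in NPCs, and leaving out single libraries moved 0 to 4 and 0 to 5. Beyond those that the alternatives show by construction, causes were not tested. *Pax2*, *Pax8* and *Lmx1a* rest on at most 10 counts per ESC library and passed the filter through NPCs alone, which limits their folds and allows only a rise.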

Other observations

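NPC J/B replicate 1, the library with the highest *En1* and *Pax5*, was the highest NPC library for *Foxa2*, a floor plate factor, and the lowest for *Corin*, a floor plate protease gene, both of the midbrain list. Both were picked after their values were seen and were given no test. In NPC B/J replicates 1 and 2 and J/B replicates 1 and 2, *Foxa2* stood at 8.47, 7.15, 35.3 and 11.7 CPM and *Corin* at 23.6, 19.4, 3.94 and 12.1 CPM. *Shh*, the midline morphogen gene, picked in the same way, stood at 20.2, 18.7, 159 and 70.8 CPM.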
